A study of Mus musculus with 16 samples.

Results

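The mRNAs of the mitochondrial ribosomal proteins were described in polysomal and subpolysomal RNA of AML12 cells, a mouse hepatocyte line. The members were all genes of the array whose symbol began with Mrpl or Mrps and a digit, which gave 76 of 30214 gene names, 47 Mrpl and 29 Mrps. They were measured by 106 probes, of which 105 were kept, and all 76 members were among the 19364 genes tested. The cells carried a doxycycline-inducible shRNA vector whose hairpin was either a scramble sequence or directed against eIF6, an initiation factor that binds the large cytosolic ribosomal subunit. All cultures received doxycycline and were stimulated with insulin for 1 h. Lysates were run on sucrose gradients, and the light and the heavy fractions were pooled into subpolysomal and polysomal RNA. This gave 4 groups of 4 arrays, namely scramble subpolysomal, scramble polysomal, eIF6 shRNA subpolysomal and eIF6 shRNA polysomal.

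Mitochondria hold their own ribosome, which translates the few mRNAs of the mitochondrial genome into subunits of the respiratory chain and the ATP synthase. Its proteins, in contrast, are all encoded in the nucleus, translated by cytosolic ribosomes and imported. Some descend from the bacterial ancestor and have a counterpart in the bacterial ribosome. Others were gained later and are found in mitochondria. Among the members, 29 large subunit and 16 small subunit proteins had a bacterial counterpart, and 20 large and 10 small subunit proteins were mitochondria-specific. Mrps18a and Mrps30 were counted with the large subunit, where their proteins sit. Mrps36, despite its name, encodes a component of the 2-oxoglutarate dehydrogenase complex and was assigned to neither subunit.

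Between 20175 and 24950 probes were well above background on an array, and no spot of the 16 arrays was saturated. All 76 members had a kept probe well above background on all 16 arrays. Values are log2 intensities after quantile normalization, so levels can be compared between arrays for 1 gene but not between genes. Eif6, the targeted gene, lay between 12.94 and 12.96 on scramble polysomal and between 11.81 and 12.00 on eIF6 shRNA polysomal arrays. On subpolysomal arrays it lay between 11.53 and 11.66 with the scramble and between 11.49 and 11.74 with the eIF6 shRNA, so the knock-down showed in polysomal RNA (log2 change -1.05 ± 0.08, SE, adjusted p = 1.45e-07 in limma) and was not called in subpolysomal RNA (log2 change 0.02, adjusted p = 0.916). Of 10 hepatocyte markers 7 were above background on all arrays, and albumin was not among them. Replicate 4 had the lowest mean over the members in both polysomal groups. The mean over the members was 12.07 and 11.99 on these 2 arrays, and 12.13 to 12.27 on the other polysomal arrays. For the members as a whole, counts that rest on them are given without replicate 4 as well. For single members and other gene lists this was done only in part.

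In scramble cells the mRNAs of most mitochondrial ribosomal proteins were richer on polysomes than in the light fractions. The ratio of polysomal to subpolysomal signal, as a log2 difference, had a median of 0.40 over the 76 members and of 0.04 over all genes tested. In limma, with an adjusted p under 0.05, 44 members (57.9%) were higher on polysomes, against 31.7% of all genes, and 13 members (17.1%) were lower, against 28.4% of all genes. A further 19 passed in neither direction. The difference reached 2-fold upwards in 9 members and downwards in 1 member. Quantile normalization sets both fractions to one distribution, so the ratio ranks mRNAs against each other and does not measure the share of an mRNA on polysomes. With each array scaled to its 75th percentile, the median of all genes moved to -0.20 and higher calls made up 40.6% of the calls over all genes, from 52.7%. With spike-in scaling the median moved to 1.52 and the share to 97.2%. The members lay above the median of all genes by 0.37 with quantile normalization and by 0.69 with either of the others. Without replicate 4 the median over the members was 0.37, with 51 members higher and 12 lower. The counts over all genes went from 6135 higher and 5500 lower to 6210 and 5671.

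**Figure D1:**
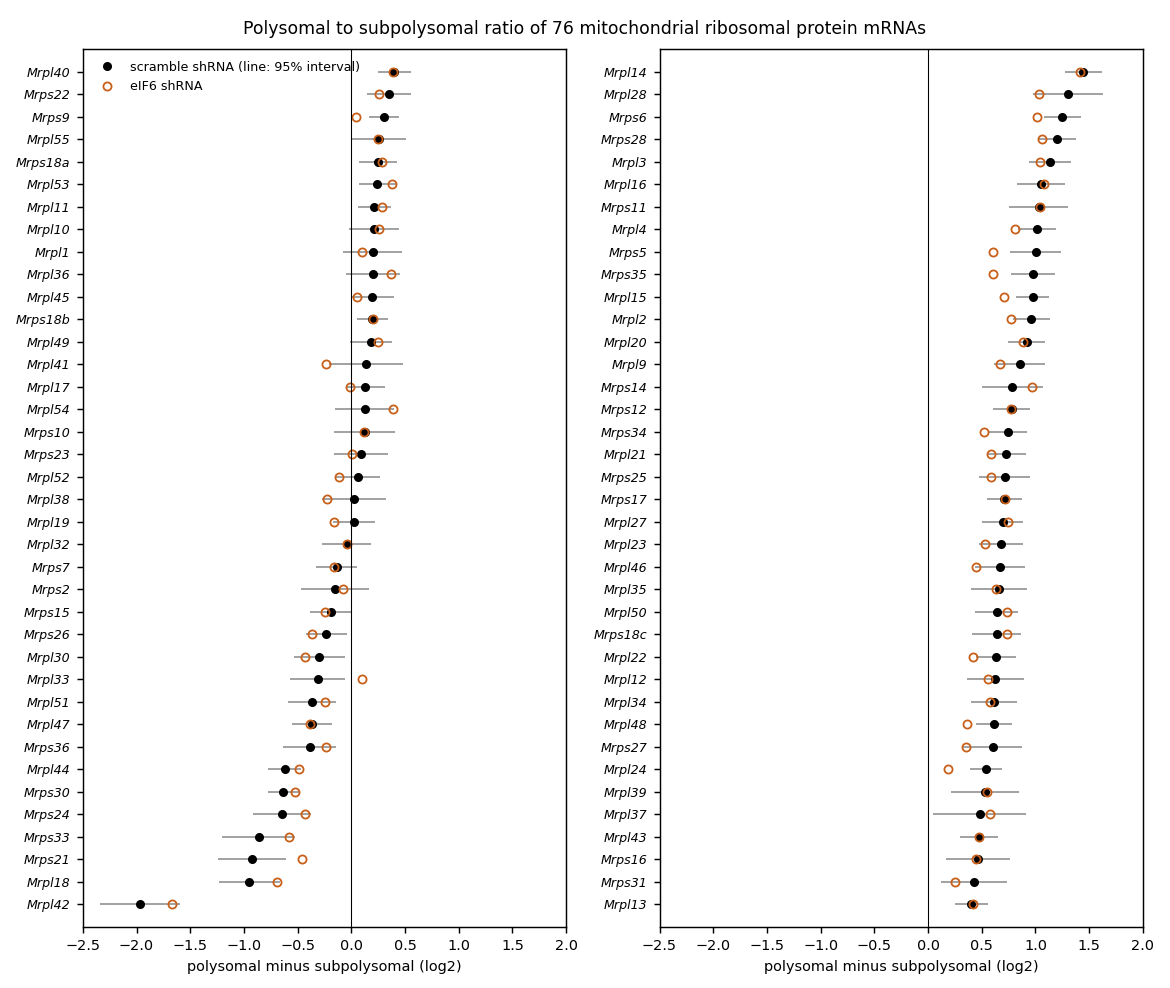
Polysomal minus subpolysomal log2 signal (x axis) of each of the 76 members (y axis, ordered by the scramble value), in scramble cells (black, with the 95% confidence interval) and eIF6 shRNA cells (orange circles), 4 arrays per group. Most members lie right of 0, and Mrpl42 lies far to the left of the others in both kinds of cell.

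Mrpl14, whose protein belongs to the conserved core of the large subunit, had the highest ratio of the gene means, although 1 probe of Mrpl41, described further on, read as high by itself. Its subpolysomal values in scramble cells were 13.94, 14.09, 14.07 and 13.95, and its polysomal values were 15.49, 15.52, 15.45 and 15.37. The ranges lay far apart, and the log2 ratio was 1.45 ± 0.08 (SE, adjusted p = 1.89e-09 in limma), or 2.72-fold. Next came Mrpl28, another large subunit protein with a bacterial counterpart, at 1.30 ± 0.15, and Mrps6, of the small subunit, at 1.25 ± 0.08. Mrps28 (small subunit, 1.20 ± 0.08) and Mrpl3 (1.14 ± 0.09), whose protein lies near the peptidyl transferase centre, followed. For each of these 5 genes the 4 polysomal arrays lay above the 4 subpolysomal arrays. Their confidence intervals overlapped in part, so the order among neighbours is not resolved by 4 arrays. All 5, ranked by gene means, encode proteins with a bacterial counterpart. So do 45 of the 76 members, among them Mrps21, which had one of the lowest ratios.

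At the other end stood Mrpl42, a mitochondria-specific protein of the large subunit. Its subpolysomal values in scramble cells were 12.78, 12.65, 12.79 and 13.15, and its polysomal values were 10.80, 11.00, 11.22 and 10.48. All polysomal arrays were below all subpolysomal arrays, with a log2 ratio of -1.97 ± 0.17 (adjusted p = 2.08e-07 in limma), 3.91-fold in favour of the light fractions with quantile normalization. Mrpl18, a large subunit protein of the family that binds 5S rRNA in bacteria, had a ratio of -0.95 ± 0.13. The small subunit members Mrps21 (-0.92 ± 0.15), Mrps33 (-0.86 ± 0.16) and Mrps24 (-0.65 ± 0.13) followed, again with no overlap between the fractions. Mrpl42 was thus separated from its nearest neighbour by more than the width of either interval, whereas the intervals of Mrpl18, Mrps21, Mrps33 and Mrps24 overlapped. With spike-in scaling the ratio of Mrpl42 was -0.06 (adjusted p = 0.926), and limma called 0 members lower, with 0 at an unadjusted p under 0.05. Over all 19364 genes the lower calls went from 5500 with quantile normalization to 382 with spike-in scaling. In that scaling Mrpl18, Mrps21, Mrps33 and Mrps24 had positive log2 ratios of 1.00, 0.96, 0.95 and 1.30, all below the median of all genes of 1.52. Mrps36 had a ratio of -0.39 ± 0.11 with quantile normalization (adjusted p = 0.00856), a call that ended with spike-in scaling too.

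The ratios of both subunits had nearly equal medians, and those of the proteins with a bacterial counterpart had the higher median. The median was 0.40 over 49 large and 0.44 over 26 small subunit members. It was 0.63 over the 45 members with a bacterial counterpart, of which 29 were higher and 6 lower. It was 0.25 over the 30 mitochondria-specific members, of which 15 were higher and 6 lower. The interquartile ranges of these classes overlapped, from 0.12 to 0.92 and from 0.07 to 0.52, and the difference between the classes was not tested. As 7 further proteins of the mitochondrial ribosome have other names, they were counted separately. Their median was 0.69, with 5 higher and 1 lower. Aurkaip1, a small subunit protein, had a ratio of 1.03, Ict1, a peptidyl-tRNA hydrolase built into the large subunit, one of 0.77, and Gadd45gip1, a large subunit protein, one of 0.69. The one that was lower was Ptcd3, a pentatricopeptide repeat protein of the small subunit, at -1.03.

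Other parts of the mitochondrial translation system were distributed differently. The 12 mitochondrial translation factors had a median ratio of -0.06, with 2 higher and 3 lower. Mtif2, the mitochondrial initiation factor, was the lowest at -2.02. The 17 assembly factors had a median of 0.03, with 6 higher and 3 lower, and Tfb1m, which methylates the small subunit rRNA, was at 1.40. The 13 mRNAs of the mitochondrial genome, which mitochondrial ribosomes translate inside the organelle, had a median of -2.63, with 12 lower and all 13 below 0. ND1, which encodes a subunit of respiratory complex I, was the lowest at -4.93. The mRNAs of 81 cytosolic ribosomal proteins had a median of -0.16, with 25 higher and 37 lower. No test between the lists was made.

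**Figure D2:**
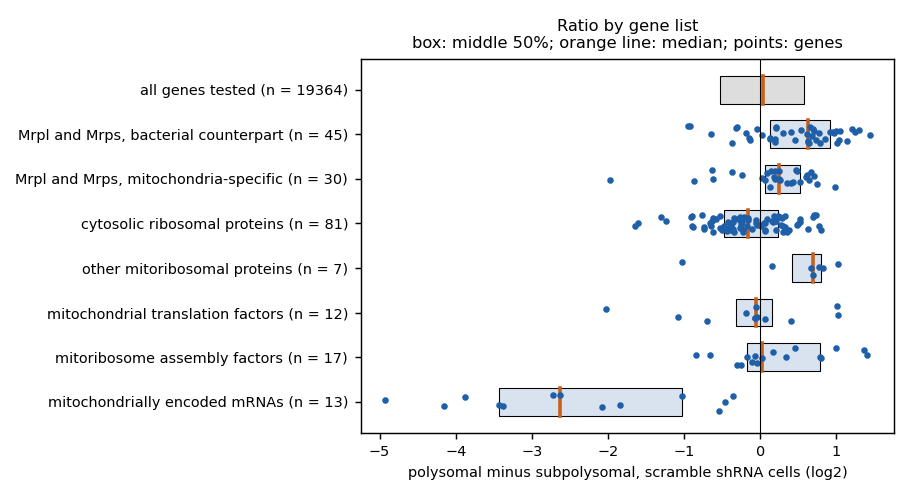
Polysomal minus subpolysomal log2 signal in scramble cells (x axis) for each gene list (y axis, with the number of genes). Boxes span the middle 50% of genes, orange lines are medians and points are genes; medians run from -2.63 for mitochondrially encoded mRNAs to 0.69 for the mitochondrial ribosomal proteins outside the Mrpl and Mrps names.

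In eIF6 shRNA cells the pattern of the members was close in numbers. There the median ratio was 0.37, against 0.03 over all genes, with 46 members higher and 11 lower. Over all genes 32.1% were higher and 28.7% lower. Without replicate 4 the median over the members was 0.40, beside 0.37 in scramble cells, with 47 members higher and 10 lower. Over all genes, 6415 were then higher and 5753 lower in eIF6 shRNA cells. Mrpl14 was again at the top with 1.41 ± 0.08, and Mrpl42 at the bottom with -1.67 ± 0.17. Mrps21 had a ratio of -0.46, beside -0.92 in scramble cells. The ratios of both kinds of cell use different arrays throughout, and their difference is the change in translational efficiency treated further on.

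For 26 members more than 1 probe was kept, and these probes ask whether a ratio belongs to the gene or to a stretch of its RNA. The median gap between the highest and the lowest probe of a member was 0.22 for the ratio in scramble cells, 0.09 for the polysomal change and 0.08 for the subpolysomal change with eIF6 shRNA. Probes that overlap in sequence gave nearly the same value. The 2 Mrps21 probes (chr3:95666577-95666636 and chr3:95666557-95666616, minus strand, mm9) shared 40 of their 60 bases and had ratios of -0.93 and -0.92. The 2 Mrpl23 probes (chr7:149726589-149726647 and chr7:149726594-149726652, plus strand, mm9) shared 55 bases and had ratios of 0.68 and 0.67. The stretch of each probe around the start of the overlap is printed 5′ to 3′ to show how far the paired probes are the same molecule, with the first 20 shared bases in capitals.
Mrps21, upstream probe: ccagccaagtTCTGTTACTTTTCTCTATAA
Mrps21, downstream probe: TCTGTTACTTTTCTCTATAAtaaaaactcc
Mrpl23, upstream probe: ccacaGACCCTAGTGAGCACAGTGG
Mrpl23, downstream probe: GACCCTAGTGAGCACAGTGGttctgacaag

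In 3 members, probes at separate positions were called in opposite directions, and in Mrps33 they were far apart. The first 30 bases of these probes are printed because the value of the gene depends on which of them is read. All lie on the minus strand of mm9. Mrpl41 had a bright probe at chr2:24829696-24829755 and a dim one at chr2:24828035-24828094. Mrpl47 had probes at chr3:32635967-32636026 (a), chr3:32633037-32633096 (b), chr3:32629104-32630111 (c) and chr3:32626187-32626246 (d), in the order of the transcript. The stretch of probe c is longer than the probe, so its bases come from more than 1 exon. Mrpl49 had probes at chr19:6054680-6054739 (a) and chr19:6053882-6053941 (b). Mrps33 had a probe split over chr6:39752512-39755513 (a) and one at chr6:39752333-39752392 (b).
Mrpl41, bright probe: gccaaaagtttgtctacaaagtggagacag
Mrpl41, dim probe: aaaggtggcacacagctgtctgtaactctt
Mrpl47, probe a: tgcagcaggctcatggccgccatggctaca
Mrpl47, probe b: tcaaggaaaggactggaagaattttttgat
Mrpl47, probe c: ccaatgccaagtccggagcgcttagaaaag
Mrpl47, probe d: agtcagtttggaaatgctgttctcactagt
Mrpl49, probe a: ttaagtacttaggatgaaagggctttgaga
Mrpl49, probe b: tcaccagccacatgtccaacccaccattaa
Mrps33, probe a: gtctactgactcaaagtccatgaaagtgag
Mrps33, probe b: agtgcatctcattatcttcccgagtattag

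The bright Mrpl41 probe was above background on all 16 arrays and had a ratio of 1.47 ± 0.07 in scramble cells, close to that of Mrpl14. The dim probe had -1.19 ± 0.30 and was above background on 7 arrays, so the mean of both, 0.14, describes neither. In Mrpl47, probe a, the most upstream, had a ratio of 0.67 ± 0.17 and probes b, c and d had -0.70 ± 0.11, -0.96 ± 0.07 and -0.48 ± 0.13. Probe a was also the one that rose in subpolysomal RNA with eIF6 shRNA (0.55 ± 0.17, adjusted p = 0.0316), whereas probe d fell (-0.38 ± 0.13, adjusted p = 0.0406) and the mean of the gene was 0.01. In Mrpl49, probe a had a ratio of 0.63 ± 0.12 and probe b one of -0.27 ± 0.08. In Mrps33, the split probe a had -1.72 ± 0.22 and probe b -0.0029 ± 0.11, so the low ratio of that gene rests on probe a. What sets these probes apart was not tested.

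**Figure D3:**
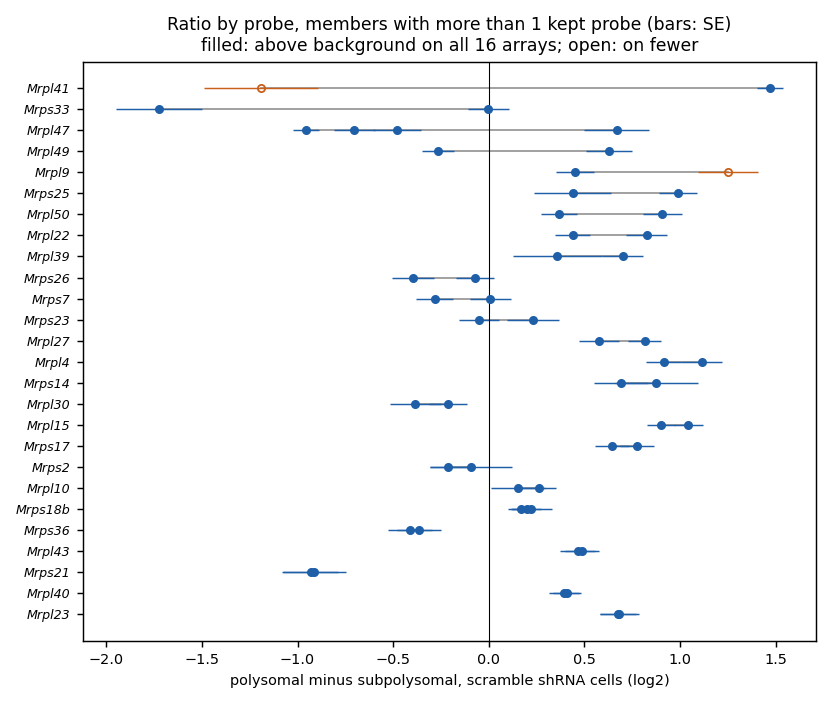
Polysomal minus subpolysomal log2 signal in scramble cells (x axis) by probe, with the SE of the fit, for the 26 members with more than 1 kept probe (y axis, ordered by the gap between probes). Open orange circles are probes not above background on all 16 arrays; the gap runs from almost none in Mrpl23 to over 2 in Mrpl41.

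On polysomes few members changed with eIF6 shRNA. In limma 7 members (9.21%) were lower, against 10.7% of all genes, and 1 (1.32%) was higher, against 11.1%. The median change over the members was -0.05 and over all genes 0.02. At an unadjusted p under 0.05, 12 were lower and 5 higher. The share of all genes at an unadjusted p was counted only for translational efficiency. No tendency of the members is therefore read from the other unadjusted counts. The members that fell were Mrps6, Mrps15 and Mrps25 of the small subunit and Mrpl13, Mrpl19, Mrpl41 and Mrpl52 of the large subunit, and Mrpl23 rose. Leaving out replicate 1, 2 or 3 left 3, 4 or 3 lower and 0 higher in limma, with 8 lower and 1, 1 or 2 higher at an unadjusted p under 0.05. Without replicate 4, 8 members fell and 6 rose, 7 of these being called with all arrays too. The counts over all genes went from 2073 lower and 2147 higher to 2370 and 2627 without replicate 4. Without replicate 1, 2 or 3 they dropped to between 1466 and 1535 lower and between 1305 and 1354 higher. With spike-in scaling the median of all genes was -0.49, higher calls made up 8.36% of the calls over all genes instead of 50.9%, and limma called 0 members, with 1 lower and 0 higher at an unadjusted p under 0.05. The members lay below the median of all genes by 0.07 with quantile normalization and by 0.04 with the other scalings.

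Mrps6 showed the clearest decrease. Its scramble polysomal values were 13.33, 13.34, 13.32 and 13.17, and its eIF6 shRNA polysomal values were 12.85, 12.90, 12.82 and 12.57. The groups did not overlap, and the log2 change was -0.51 ± 0.08 (adjusted p = 0.000278), a 1.42-fold decrease. Replicate 4 was the lowest array in both groups, and without it the change was -0.48.

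Mrpl52, a mitochondria-specific protein of the large subunit, read 15.30, 15.09, 15.10 and 15.05 on scramble and 14.73, 14.80, 14.75 and 14.43 on eIF6 shRNA polysomal arrays. The ranges were separate, and the change was -0.46 ± 0.10 (adjusted p = 0.00265). Mrpl13, of the conserved core of the large subunit, read 13.92, 13.88, 13.94 and 13.87 against 13.69, 13.71, 13.58 and 13.41. All eIF6 shRNA arrays were below all scramble arrays here too, with a change of -0.30 ± 0.07 (adjusted p = 0.00689). Mrps25, a mitochondria-specific small subunit protein, changed by -0.40 ± 0.11, from 11.13 to 11.30 on scramble arrays to 10.78 to 10.89. Mrps15 (-0.30 ± 0.09) and Mrpl19 (-0.27 ± 0.09, adjusted p = 0.0497) were the closest to the threshold. Without replicate 4 the call of Mrpl19 was lost, and the other members that fell were still called. The mean for Mrpl41 was -0.87 ± 0.16, but its dim probe was above background on no eIF6 shRNA polysomal array, so that the decrease of that probe is bounded only as at least 1.04-fold. The bright Mrpl41 probe fell by 0.27 (SE 0.07, adjusted p = 0.0103).

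Mrpl23, whose protein lies by the exit tunnel of the large subunit, was the member that rose. It read 15.16, 15.25, 15.26 and 14.85 on scramble and 15.37, 15.57, 15.46 and 15.45 on eIF6 shRNA polysomal arrays. Its lowest value was replicate 4 of the scramble group, and the groups did not overlap. The change was 0.33 ± 0.09 (adjusted p = 0.0200). It was 0.24 without replicate 4 (adjusted p = 0.0373), and -0.22 with spike-in scaling, above the median of all genes there. The call was lost without replicate 1 (adjusted p = 0.0848), 2 (0.0903) or 3 (0.0739), with scaling to the 75th percentile (0.26, adjusted p = 0.144) and with each fraction normalized separately (0.25, adjusted p = 0.0505).

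**Figure D4:**
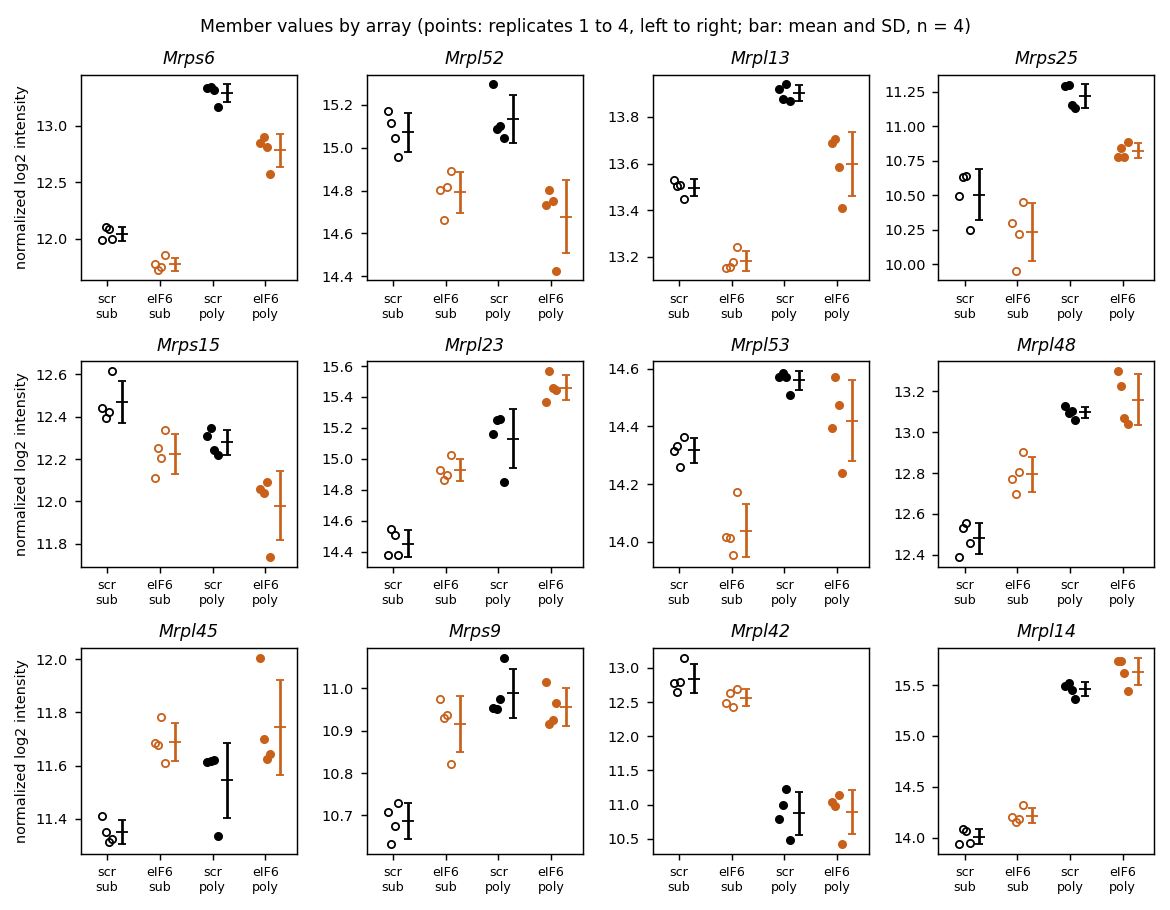
Normalized log2 intensity (y axes, which differ in range and do not start at 0) of 12 members on the 16 arrays, by group (x axes: scr, scramble shRNA; eIF6, eIF6 shRNA; sub, subpolysomal; poly, polysomal). Points are replicates 1 to 4 from left to right, bars the mean and SD; replicate 4 is the lowest polysomal array in most panels.

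In subpolysomal RNA 8 members (10.5%) were lower with eIF6 shRNA, against 12.4% of all genes, and 5 (6.58%) were higher, against 11.9%. The median change was -0.01 over the members and 0.02 over all genes. The counts depended on the arrays used. Leaving out replicate 1, 2 or 3 left 0, 0 or 1 lower and 2, 2 or 1 higher in limma (6, 6 or 7 lower and 5, 8 or 5 higher at an unadjusted p under 0.05), and leaving out replicate 4 gave 15 lower and 9 higher, 12 of them among the calls with all arrays. Over all genes the lower calls went from 2392 to between 1407 and 1547 without replicate 1, 2 or 3 and to 3108 without replicate 4. The higher calls over all genes went from 2295 to between 1220 and 1359 and to 3049. Scaling to the 75th percentile gave 0 lower and 8 higher in limma, with 6 lower and 13 higher at an unadjusted p under 0.05. Over all genes this scaling gave 1897 lower and 2336 higher. Spike-in scaling gave 0 members in both directions in limma, adjusted or not at a p under 0.05. With spike-in scaling, higher calls made up 9.3% of the calls over all genes, from 49%, and the median of all genes was -0.25.

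Of the members that fell on polysomes, Mrps6, Mrpl13, Mrpl41 and Mrpl52 were also lower in subpolysomal RNA. Among the decreases, Mrpl13 had the smallest p in this fraction. It read 13.53, 13.50, 13.51 and 13.45 on scramble and 13.15, 13.16, 13.18 and 13.24 on eIF6 shRNA arrays. These ranges lay well apart, and the change was -0.32 ± 0.07 (adjusted p = 0.00549), beside -0.30 on polysomes. Mrps6 changed by -0.27 ± 0.08 and Mrpl52 by -0.28 ± 0.10. The call of Mrpl41 (-0.49 ± 0.16 for the mean of its probes) rests on the dim probe, which was above background on 3 of 4 scramble and 1 of 4 eIF6 shRNA subpolysomal arrays and so gives no firm size. The bright probe had -0.12 ± 0.07 (adjusted p = 0.22).

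The other members lower in subpolysomal RNA were Mrpl18 (-0.42 ± 0.13), Mrps24 (-0.39 ± 0.13), Mrpl51 (-0.33 ± 0.10) and Mrpl53 (-0.28 ± 0.08). Mrpl18 and Mrps24 were also among the 5 members with the lowest polysomal to subpolysomal ratio. Both measures subtract the same scramble subpolysomal arrays, so they are not independent. Mrpl53, a mitochondria-specific protein of the large subunit, read 14.31, 14.33, 14.26 and 14.36 on scramble and 14.02, 14.01, 13.95 and 14.17 on eIF6 shRNA arrays, without overlap. On polysomes its change was -0.14 and not called.

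Among the members that rose, Mrpl23 went from 14.38, 14.55, 14.51 and 14.38 to 14.93, 14.86, 14.90 and 15.03. It had the largest increase of the members in either fraction, 0.48 ± 0.09 (adjusted p = 0.00182), and it rose with each of its overlapping probes (0.43 and 0.52). Mrpl45, whose protein helps to hold the mitochondrial ribosome at the inner membrane, rose by 0.34 ± 0.10, and Mrpl48, a mitochondria-specific protein, by 0.31 ± 0.08. Mrps9 and Mrpl15, both with a bacterial counterpart, each rose by 0.23. Mrps9 read 10.71, 10.63, 10.67 and 10.73 against 10.97, 10.93, 10.94 and 10.82, again without overlap. On polysomes the changes of Mrps9 and Mrpl15 were -0.03 and -0.04.

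**Figure D5:**
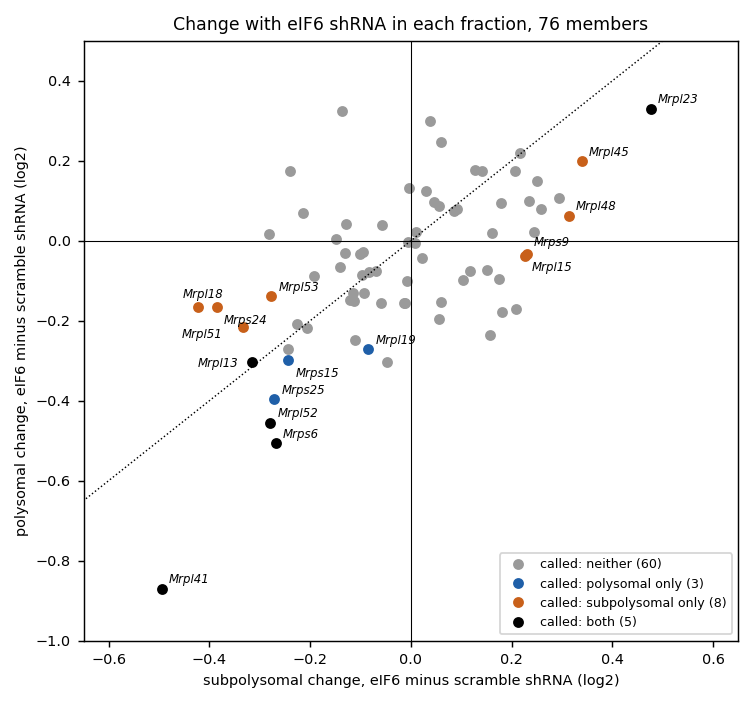
Change with eIF6 shRNA (log2, eIF6 minus scramble) in subpolysomal (x axis) and polysomal RNA (y axis) of the 76 members, coloured by the fraction in which limma called them; the dotted line marks equal change. Of the 16 members called in either fraction, 5 were called in both and lie near or below the dotted line, with Mrpl23 at the upper right.

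Of the markers of other cell types, mainly those of fibroblasts and stellate cells moved with the shRNA in the same arrays. Of 8 fibroblast and stellate cell markers 7 were tested, and 6 of these fell on polysomes and 5 in subpolysomal RNA, with medians of -2.96 and -1.22. The polysomal change minus the subpolysomal change of these markers had a median of -1.39. It was below 0 for all 7 and called lower for 2. Why they fell more on polysomes was not tested. Their summed intensity was 162060 to 275732 on scramble and 27149 to 43986 on eIF6 shRNA polysomal arrays, and 131942 to 140873 and 59846 to 74068 on subpolysomal arrays. Lrat, a gene of stellate cells, was above background on no array, nor were the endothelial genes Cdh5, Tek and Stab2 or the macrophage gene Lyz2. Of 4 macrophage and blood cell markers tested, 1 fell in each fraction. Of 2 endothelial and 4 bile duct cell markers tested, 0 were called in either fraction. Of 10 hepatocyte markers limma called 1 in each fraction, Ttr, which rose by 1.15 on polysomes and by 1.33 in subpolysomal RNA. The medians of the 10 were -0.01 and 0.13, with 5 and 3 below 0, and Apoe and Hnf4a had uncalled polysomal changes of -0.25 each. The part of these shifts in the changes of the members was not tested. In bulk RNA, fewer cells of a type and less RNA per cell cannot be told apart.

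Translational efficiency, the polysomal change minus the subpolysomal change, was called for 0 of the 76 members in limma, against 1.11% of all genes lower and 0.403% higher. At an unadjusted p under 0.05, 6 members were lower and 2 higher, against 7.35% and 5.14% of all genes. The median change was -0.03 over the members and 0.02 over all genes. The changes ran from -0.39 to 0.46 with a median SE of 0.14. The 95% confidence interval lay within 1 on either side of 0 for all 76 members and within 0.5 for 55. With quantile normalization and the probes averaged, a 2-fold change was thus outside the interval of each member. The bound does not extend to single probes, such as the dim Mrpl41 probe (-0.60 ± 0.42) and Mrps33 probe a (0.41 ± 0.32). Nor does it cover a shift common to all genes, which quantile normalization removes. With spike-in scaling the median change was -0.20 over all genes and -0.25 over the members. Over all genes, higher calls made up 26.6% of the calls, and 12.1% and 9.09% with scaling to the 75th percentile and to spike-ins.

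The members nearest to a call were chosen after their values were seen. Mrpl24, a large subunit protein with a bacterial counterpart, had the smallest p. Its subpolysomal values were 11.83, 11.83, 11.86 and 11.83 in scramble and 12.06, 11.92, 12.04 and 12.04 in eIF6 shRNA cells, and its polysomal values were 12.35, 12.43, 12.36 and 12.37 against 12.08, 12.21, 12.17 and 12.34. It was higher in the light and lower in the heavy fractions, without overlap in either, and the change in translational efficiency was -0.36 ± 0.10 (unadjusted p = 0.00239, adjusted p = 0.0952). The largest increase was that of Mrps21 (0.46 ± 0.21, adjusted p = 0.383), and the largest decrease that of Mrps5 (-0.39 ± 0.15, adjusted p = 0.290), both small subunit proteins with a bacterial counterpart. Mrpl33, a small protein of the large subunit, was at 0.42 ± 0.17 (adjusted p = 0.307), and without replicate 4 it was called higher (0.50, adjusted p = 0.0423).

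For comparison, 2 of the 81 cytosolic ribosomal protein mRNAs were called in translational efficiency, both lower, and the median change was -0.17. In subpolysomal RNA 28 of these rose and 2 fell, with a median of 0.17. Among other genes of the mitochondrial ribosome, Gadd45gip1 fell by 0.35 on polysomes (adjusted p = 0.00821), as the one of the 7 that was called there. Of the 13 mitochondrially encoded mRNAs 4 rose on polysomes. Their translational efficiency had a median change of 0.38 and was called in limma for 0, with 4 higher at an unadjusted p under 0.05.

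The arrays were on 4 slides, each with 1 array of every group, so that each comparison can be made within a slide. The median ratio over the members in scramble cells was 0.41, 0.37, 0.35 and 0.40 on slides 1 to 4, which differ by little. The median polysomal change, in contrast, was -0.05, -0.22, 0.14 and -0.07, and that of translational efficiency was 0.04, -0.21, 0.20 and -0.13. Slides 2 and 3 hold the polysomal arrays of replicate 4, of the eIF6 shRNA and of the scramble group, and lay furthest apart. With the slide as a block 7 members were lower and 1 higher on polysomes, and 10 lower and 5 higher in subpolysomal RNA. The counts over all genes rose with the block as well. On polysomes they went from 2073 lower and 2147 higher to 2209 and 2285. In subpolysomal RNA they went from 2392 lower and 2295 higher to 2617 and 2594.

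The starts of the genes were searched for motifs, since the members are a set of nuclear genes whose products are needed together. In RefSeq (GRCm38.p6), 67 of the 76 members matched a window of 250 bases before to 50 bases after the start by symbol. The letters CCGGAAG, the core bound by ETS factors such as GABP, occurred on either strand in 35.8% of these 67 genes, in 40.0% of 60 cytosolic ribosomal protein genes and in 9.93% of all 27025 genes of the table. AAGATGGC, a form of the YY1 motif, occurred in 17.9%, 10.0% and 3.19% of the same lists, and GCATGCGC, a form of the NRF1 motif, in 11.9%, 5.0% and 3.05%. The E-box CACGTG occurred in 7.46%, 10.0% and 8.09%. A start of the oligopyrimidine form, a C followed by 4 pyrimidines at the annotated start, as found in many cytosolic ribosomal protein mRNAs, was present in 0 of 67 members, in 21.7% of the 60 cytosolic ribosomal protein genes and in 3.01% of all genes. Only the annotated base was searched, so a start used some bases away is missed. The shares can therefore be too low, and 0 matches do not show that the mRNAs of the members lack the form. A match is a description of letters, and none of these shares was tested. Of the 16 members called with eIF6 shRNA in either fraction 13 were in the table, and 5 of them had the ETS core before the start. These stretches are shown with the core in capitals, on the strand of the gene, to let the called members be compared.
Mrpl18, chr17:12916312-12916341: actgaaaacgCCGGAAGtagggggctgcgg
Mrpl48, chr7:100583146-100583175: ggttttaaaaaCTTCCGGaaccaagatgct
Mrpl51, chr6:125192099-125192128: caggggctaaaCCGGAAGtatttgactgga
Mrpl52, chr14:54426851-54426880: caagatgtcggCTTCCGGttttcccggcag
Mrpl53, chr6:83109038-83109067: ccgcggagccgCCGGAAGcggtccgttcca
Mrpl53, chr6:83109078-83109107: ccccagtgctactcCTTCCGGggtggaggt

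Of these, Mrpl48 rose in subpolysomal RNA and the other 4 fell, from which no tendency is read.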

How the data were processed

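Gene expression of AML12 cells was measured on 16 Agilent arrays (1 colour), with the polysomal and the subpolysomal pool of each shRNA on 4 biological replicates. The authors deposited scanner files with a background-corrected intensity per spot, made with Feature Extraction (10.7.7.1 in the submitters' processing notes, 10.7.3.1 in the file headers), and a table of quantile-normalized log2 values. The labels give the insulin dose as 100 nM in one place and in millimolar units in another.

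Intensities were read in R 4.3.3. Control spots and outlier spots were left out, which removed 82 values, and repeated spots were averaged. Probes well above background on 2 or more arrays of any group were kept. After quantile normalization of the log2 values of all 16 arrays, the kept probes of a gene name were averaged. The linear model of limma 3.58.1 was fitted to 19364 genes with the 4 group means and 5 contrasts, with Benjamini-Hochberg adjustment over all genes and a threshold of 0.05. Errors are SE of the fit (4 arrays per group). The number of arrays limits the precision. The procedure was tested on simulated data. The files gave the gene names and the mm9 positions of probes, and promoter windows came from RefSeq (GRCm38.p6). Figures were drawn with matplotlib 3.10.9.

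The members and gene lists were chosen with earlier results of these data known. Named are, for each change with the shRNA, the 6 called members with the smallest p in either direction, the 5 highest and 5 lowest ratios in scramble cells among members above background on all arrays, members whose probes were called in opposite directions, members with a probe below background in a group, Eif6, and up to 3 genes of each other list. Mrpl19, Ptcd3, the members nearest to a call in translational efficiency and other members given with a value were named after their values were seen.

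The labels do not say whether arrays with the same replicate number come from one culture, and the main fit used no pairing. Deviations of arrays with the same number from their group means had a median correlation of -0.01, with 3 of 24 pairs over 0.1. Arrays of the same slide had one of 0.13, with 14 of 24 pairs. The pairs span all 4 groups, so they do not settle whether the fractions of one culture share a number. The alternatives comprised a scaling by the 75th percentile and one by 7 spike-in probes, each fraction normalized separately, normexp background correction (offset 50), other filters, the brightest probe, the authors' log2 table, blocks for slide, replicate number and culture, and leaving out each replicate number.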

Additional observations from a re-analysis of the deposited data

Results flagged for a closer look

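In 7 of 100 groups of 4 arrays tested, over 24 named members and the median over the members, 1 array lay far from the other 3 by Dixon's test at the 95% level, where chance gives about 1 in 20. In 6 of the 7 the array was replicate 4 of a polysomal group and the lowest. On scramble polysomal arrays these were Mrps6 at 13.17 (others 13.32 to 13.34), Mrpl51 at 14.78 (15.03 to 15.08), Mrpl45 at 11.33 (11.61 to 11.62) and Mrpl49 at 12.44 (12.72 to 12.75). On eIF6 shRNA polysomal arrays they were Mrps15 at 11.74 (12.04 to 12.09) and Mrps24 at 11.73 (12.19 to 12.24). The remaining one was Mrpl49 on replicate 2 of the eIF6 shRNA subpolysomal arrays, at 12.33 (12.40 to 12.40). The median over the members was flagged in none of the groups.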

How the results depend on the processing

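With spike-in scaling, which rests on 7 probes, no member was called with eIF6 shRNA (0 lower and 0 higher in both fractions), and the medians over the members were -0.53 on polysomes, -0.29 in subpolysomal RNA and -0.25 for translational efficiency. Over all 19364 genes it called 997 lower and 91 higher on polysomes, and 312 and 32 in subpolysomal RNA. The same scaling gave 71 members higher and 0 lower in the ratio of scramble cells (median 2.21), and 70 and 0 in eIF6 shRNA cells (median 1.99). Over all genes this scaling gave 13032 higher and 382 lower in scramble cells, and 10924 and 455 in eIF6 shRNA cells. It reversed Mrpl23 on polysomes (-0.22), Mrps9 (-0.072), Mrpl15 (-0.065) and Mrpl47 (-0.30) in subpolysomal RNA, and the ratios of Mrpl18 (1.00), Mrps21 (0.96), Mrps33 (0.95) and Mrps24 (1.30). Scaling to the 75th percentile gave 4 lower and 0 higher on polysomes, 0 lower and 8 higher in subpolysomal RNA, and a median ratio of 0.50 in scramble cells. Over all genes it gave 2131 lower and 1985 higher on polysomes, and 1897 lower and 2336 higher in subpolysomal RNA. On polysomes, 0 members were higher with each fraction normalized separately, and 2 with normexp or with the brightest probe. The brightest probe reversed Mrpl47 in subpolysomal RNA (-0.15) and the ratio of Mrpl49 (-0.27). With normexp, translational efficiency was called lower for 1 member (Mrpl24, -0.34, adjusted p = 0.0317). In subpolysomal RNA, 4 were lower with no filter, and 5 with the replicate number as a block, which moved no other count by over 1.5 times. Leaving out 1 replicate number gave 3 to 8 lower and 0 to 6 higher on polysomes, 0 to 15 lower and 1 to 9 higher in subpolysomal RNA, and 0 to 1 higher in translational efficiency, and Mrpl47 in subpolysomal RNA ran from -0.056 without replicate 1 to 0.050 without replicate 4. The cause of these shifts was not tested. Of the values of single members under an alternative, 365 kept their direction and side of the threshold, 75 lost the call, 3 gained one and 11 reversed.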
